A study of Mus musculus with 34 samples.

Results

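Circadian clock genes were followed across the neocortex and hippocampus of juvenile mice: the activators Clock and Npas2, the repressors Per1, Per2 and Cry1, and the output transcription factors Dbp and Tef. They were chosen by gene symbol, and each was read from the probe set that the platform annotation pairs with that symbol alone. All 7 genes were measured, out of 8251 genes named on the arrays. Cry1 had 2 further probe sets, both dim, with mean signals of 30.5 and 14.8 against 1144 for the one used, and the other genes had 1 probe set each. Signals of different probe sets depend on the probes, so levels are compared between arrays for 1 gene at a time.

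Male mice were injected intraperitoneally on postnatal day 23 with kainate at 15 mg/kg, nicotine at 10 mg/kg or saline, 3 times at intervals of 2 h in the daytime, and those that survived were killed on postnatal day 30. Kainate excites neurons through ionotropic glutamate receptors and is a convulsant, and nicotine activates nicotinic acetylcholine receptors. Both regions were taken from 6 saline, 5 kainate and 6 nicotine mice, which gave 34 arrays in 6 groups. The labels give no strain, no time of day at which the mice were killed, and no statement of which neocortex and hippocampus arrays share a mouse.

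The clock is a transcriptional loop. CLOCK or NPAS2, each paired with the product of Arntl (BMAL1), binds E-box sequences and activates the Per and Cry genes, and the PER and CRY proteins then return to the nucleus and repress that activation. Dbp and Tef are PAR bZip factors that bind D-boxes and pass the rhythm on to other genes. Nearly every tissue runs such a loop, the suprachiasmatic nucleus of the hypothalamus sets their phase, and Per1 is in addition an immediate early gene that responds to light, cAMP signalling and glucocorticoids. In the forebrain NPAS2 is known as a partner that can stand in for CLOCK.

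The E-box is the sequence through which the loop closes, so the promoter windows that hold one are shown. RefSeq promoters of mouse build GRCm38.p6 were matched to 6 of the 7 genes, and Per2 had no entry. In the 250 bases before each annotated start, both strands were searched for the E-box CACGTG, the E′-box CACGTT, the D-box TTANGTAA and the cAMP response element TGACGTCA. Motif matches are in capitals, and each window is written 5′ to 3′ on the strand of the gene.
Per1, upstream start, chr11:69098699-69098948, plus strand: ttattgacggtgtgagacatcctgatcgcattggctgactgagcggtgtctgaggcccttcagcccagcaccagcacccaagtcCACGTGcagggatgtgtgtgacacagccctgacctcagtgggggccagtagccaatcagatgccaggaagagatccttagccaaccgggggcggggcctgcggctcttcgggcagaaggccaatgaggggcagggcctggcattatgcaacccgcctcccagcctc
Cry1, chr10:85185055-85185304, minus strand: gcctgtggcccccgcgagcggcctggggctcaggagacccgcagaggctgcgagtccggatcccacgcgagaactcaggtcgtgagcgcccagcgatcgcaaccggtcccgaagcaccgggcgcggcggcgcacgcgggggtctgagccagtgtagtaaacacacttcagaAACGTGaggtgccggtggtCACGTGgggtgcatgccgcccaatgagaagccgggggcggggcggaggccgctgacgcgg
Tef, upstream start, chr15:81802423-81802672, plus strand: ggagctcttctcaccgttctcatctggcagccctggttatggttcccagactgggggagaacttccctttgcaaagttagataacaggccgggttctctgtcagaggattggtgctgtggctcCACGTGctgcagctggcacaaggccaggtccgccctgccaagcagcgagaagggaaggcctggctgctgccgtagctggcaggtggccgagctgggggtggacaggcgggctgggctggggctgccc
Tef, downstream start, chr15:81811164-81811413, plus strand: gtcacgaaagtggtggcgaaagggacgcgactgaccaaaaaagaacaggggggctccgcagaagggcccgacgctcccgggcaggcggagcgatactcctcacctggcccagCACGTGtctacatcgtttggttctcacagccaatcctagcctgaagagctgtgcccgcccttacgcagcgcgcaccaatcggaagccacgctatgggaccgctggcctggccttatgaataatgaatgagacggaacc
Each of the 4 windows holds 1 E-box, 166, 60, 127 and 138 bases before the start for Per1, Cry1 and the upstream and downstream starts of Tef. The window of Cry1 also holds an E′-box on the opposite strand, which appears in the printed window as AACGTG, 79 bases before the start. Among 32851 promoter windows of the same length, 6.02% held an E-box, 3.85% an E′-box, 2.06% a D-box and 1.55% a cAMP response element. The windows of Dbp, Npas2, the downstream start of Per1 and the 3 starts of Clock held none of the 4 motifs. No match overlapped another.

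The arrays had been scaled by the authors to a common level, and the median signal of an array lay between 375.8 and 438.6. The summed signal of 6 hippocampal neuron markers was 13716 to 14817 in the saline hippocampus and 6320 to 7042 in the saline neocortex. Among them Calb1 went the other way, with means of 2430 and 2775, and the rest had higher means in the hippocampus. The signals of 9 control probe sets for bacterial and phage transcripts, which are added to the sample during processing, sorted the arrays of each region into 3 clusters. The number of 3 was set for the clustering and was not estimated from the data. In the neocortex cluster 1 held replicates 1 to 3 of every treatment (9 arrays), cluster 2 held 5 arrays and cluster 3 held 3. In the hippocampus the clusters held 9, 5 and 3 arrays. Each cluster held arrays of all 3 treatments. In both regions cluster 1 held 3 arrays of each treatment, cluster 2 held 1 kainate array and cluster 3 held 1 array of each treatment. Only within cluster 1 can all treatments be compared with replicates. Clusters were made within each region, so no cluster could hold both regions. They do not show whether processing differed between the arrays of the regions, and any such difference cannot be told apart from region. These clusters are given beside the results they touch.

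**Figure D1:**
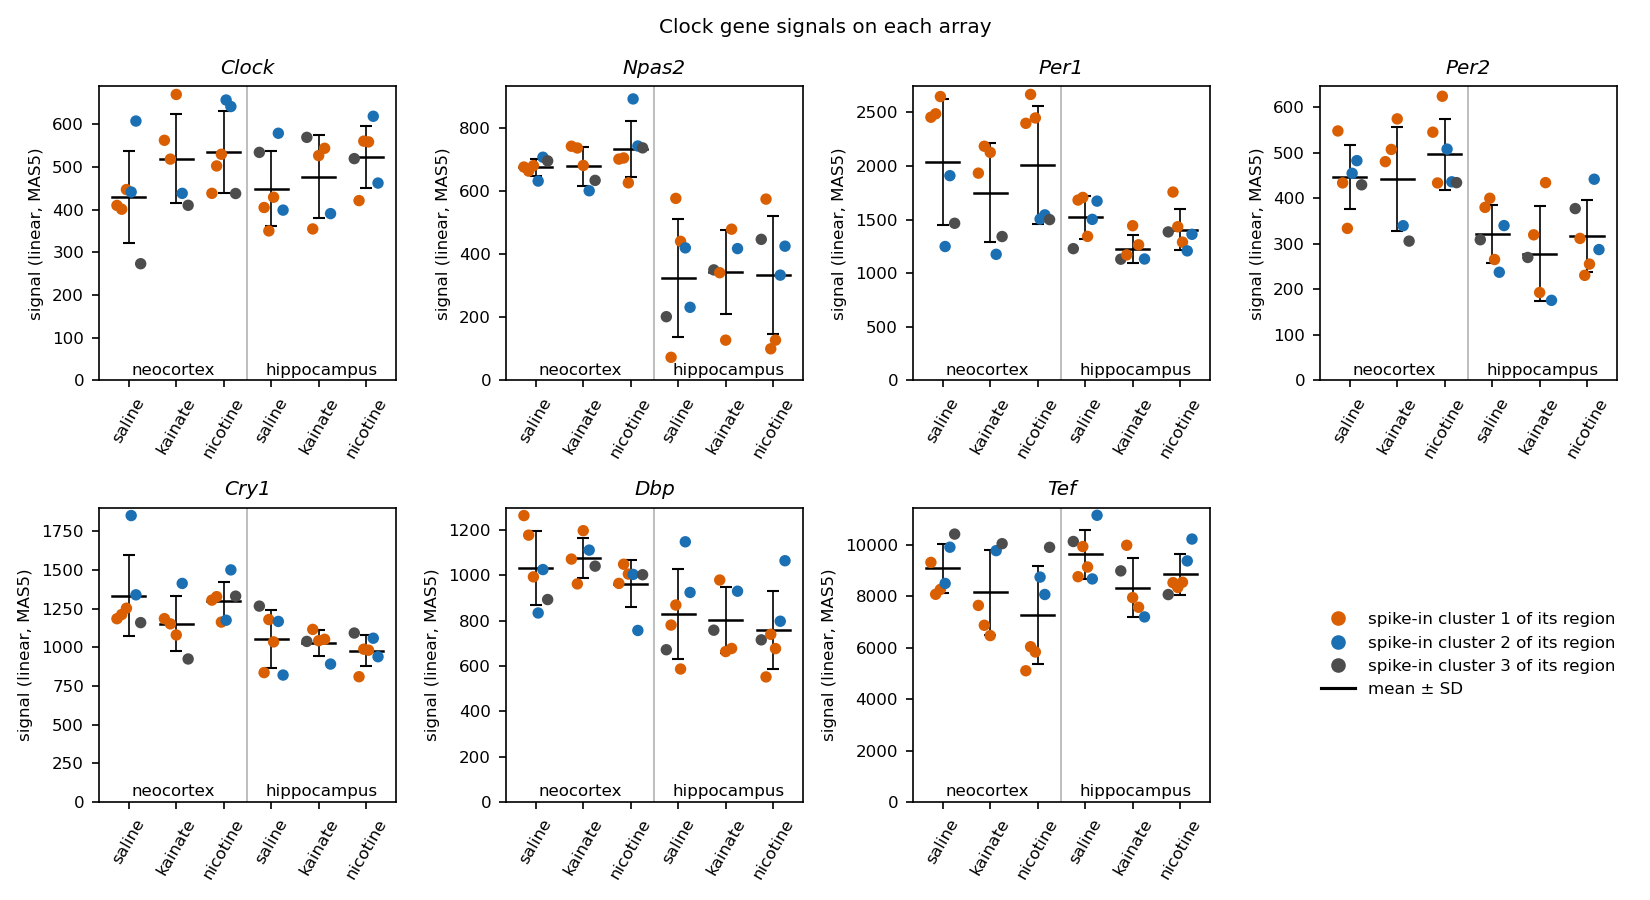
Signal of each clock gene (linear MAS5 scale, axis from 0) on all 34 arrays, by treatment and region, with the group mean ± SD and the points coloured by the spike-in cluster of their region. Npas2 lies lower on every hippocampus array than on any neocortex array, and the neocortex Per1 points separate by cluster, with cluster 1 between 1934 and 2668 and the other clusters between 1176 and 1910.

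The first question was whether the clock genes differ between the regions. Npas2, Per2, Cry1, Dbp and Per1 were lower in the hippocampus when the 3 treatments were averaged, by 2.32-fold, 1.51-fold, 1.23-fold, 1.30-fold and 1.36-fold, and Clock and Tef did not pass the test. These 5 of 7 genes were all lower and none was higher. By limma with Benjamini-Hochberg adjustment over 8695 probe sets, 24.8% of all probe sets were called in this averaged comparison at an adjusted p under 0.05, so 5 of 7 is to be read against that share. The median log2 difference of the 7 genes was -0.37, against 0.01 over all tested probe sets. In single treatments, with fewer arrays, 1 of 7 was called with saline (10.5% of all probe sets), 1 with kainate (13%) and 3 with nicotine (9.61%), all of them lower in the hippocampus. The comparison averaged over treatments was added after the values had been seen. In bulk tissue, fewer cells of a type and less RNA per cell cannot be told apart.

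Npas2 showed the widest gap. In the saline neocortex its signal ran from 632.7 through a median of 679.4 to 708.3, and in the saline hippocampus from 73.4 through 326.4 to 577.7. The 5 kainate arrays read 743.2, 737.6, 682.2, 601.9 and 634.8 in the neocortex and 350.8, 341.8, 127.9, 480 and 418.4 in the hippocampus. With nicotine the range was 627 to 893.3, with a median of 722, in the neocortex and 100.4 to 575.4, with a median of 380.1, in the hippocampus. All 17 hippocampus arrays therefore lay below the lowest neocortex array, in every treatment. The averaged difference was -1.22 ± 0.21 (SE) on the log2 scale (adjusted p = 1.75e-05 by limma). By treatment it was -1.26 ± 0.35 with saline (adjusted p = 0.013 by limma), -1.06 ± 0.38 with kainate (0.0617, not called) and -1.32 ± 0.35 with nicotine (0.00893). The saline call was lost without saline hippocampus replicate 2, the array at 73.4, with an adjusted p of 0.0614 by limma and a difference of -0.93. With the neocortex limited to cluster 1 or to clusters 2 and 3, which leaves fewer arrays, the averaged difference was -1.21 in both cases and called. The single-treatment calls were lost with either set, at -1.26 and -1.27 with saline (adjusted p = 0.128 and 0.154 by limma) and -1.21 and -1.43 with nicotine (0.152 and 0.109). With cluster as a random block the saline difference was -1.23 and not called (0.0514).

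The regions also differed in how steady Npas2 was. Its SD within groups on the log2 scale was 0.12 in the neocortex, a spread larger than that of only 5.57% of tested probe sets, and 0.91 in the hippocampus, larger than that of 98.3%. Of the 17 hippocampus arrays 4, at 73.4 to 127.9, fell below 129.7, the signal at which probe sets were filtered, and no neocortex array did. In the hippocampus the spike-in clusters held 8.29% of this spread, against a median of 19.1% over all tested probe sets. The genes most like Npas2 over the 17 hippocampus arrays, after treatment means were removed, were Trmt1 (r = 0.87), Fbxw7 (0.85) and Mef2c (0.83), a transcription factor of neurons. Over all 34 arrays, with the 6 group means removed, they were Ccn2 (0.79) and 2 probe sets of Mef2c (0.77 and 0.74). Mef2c itself had a median signal of 2577 (range 1673 to 3739) in the neocortex and 539.2 (240.7 to 867.7) in the hippocampus on the probe set plotted here. These are the highest of 7803 ranked probe sets in the hippocampus and 7812 over all arrays, and they describe these arrays only.

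Clock, the other activator and the usual partner of BMAL1, did not differ detectably between the regions. Its signal had a median of 447.3 (range 273.5 to 670.1) in the neocortex and 519.8 (350.4 to 619) in the hippocampus, with full overlap. The averaged log2 difference was -0.02, with a 95% interval from -0.22 to 0.18 (adjusted p = 0.908 by limma). By treatment the log2 difference was 0.08 with saline, -0.12 with kainate and -0.02 with nicotine, none of them called.

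Per2, a repressor of the loop, was the member with the second largest regional difference. The medians were 454.8 (306 to 624.1) in the neocortex and 309 (175.9 to 441.9) in the hippocampus, and the ranges overlapped. The kainate arrays read 306 to 574.4 in the neocortex with a median of 480.5, and 175.9 to 434.4 in the hippocampus with a median of 270.1. With nicotine the neocortex ran from 433.7 through 472.1 to 624.1 and the hippocampus from 230.8 through 299.6 to 441.9, and the ranges overlapped only between 433.7 and 441.9. The log2 difference was -0.46 with saline (adjusted p = 0.141 by limma), -0.67 ± 0.21 with kainate (0.0312) and -0.64 ± 0.19 with nicotine (0.0278). Both calls were sensitive to single arrays. The kainate call was lost without neocortex replicate 1, 2 or 3 or hippocampus replicate 1, 3 or 5 (adjusted p between 0.0507 and 0.121 by limma, differences of -0.63, -0.61, -0.57, -0.68, -0.56 and -0.53). The nicotine call was lost without neocortex replicate 1, 3 or 4 or hippocampus replicate 3, 4 or 6 (adjusted p between 0.051 and 0.0851 by limma, differences of -0.61, -0.57, -0.63, -0.56, -0.59 and -0.62). They also depended on the clusters. Against neocortex clusters 2 and 3 the kainate difference was -0.27 (adjusted p = 0.723 by limma) and the nicotine difference -0.54 (0.285), and against cluster 1 the nicotine difference was -0.74 and not called (0.0683). With cluster as a random block neither was called (0.0912 with kainate and 0.102 with nicotine). The averaged difference of -0.59 ± 0.12 (adjusted p = 0.000136 by limma) was called with any 1 array left out, and was -0.70 against cluster 1 and -0.44 against clusters 2 and 3.

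Cry1, whose protein is the strong repressor of CLOCK and BMAL1, showed its clearest gap with nicotine. There the neocortex ran from 1164 through a median of 1317 to 1501 and the hippocampus from 810.1 through 985 to 1093, with no overlap. The log2 difference was -0.41 ± 0.12 (adjusted p = 0.0212 by limma). It was no longer called without nicotine neocortex replicate 5 (-0.36, adjusted p = 0.0639 by limma) or without nicotine hippocampus replicate 2 (-0.35, 0.0681). Against neocortex cluster 1, against clusters 2 and 3 and with cluster as a random block, the nicotine difference was -0.37, -0.44 and -0.39, none of them called (adjusted p = 0.0848, 0.141 and 0.0644 by limma). With saline the difference was -0.34 ± 0.12 (adjusted p = 0.0622 by limma, not called), and with kainate -0.15 (0.546). The averaged difference was -0.30 ± 0.07 (adjusted p = 0.00131 by limma). Its probe set carries the array maker's suffix for probe sets that can match several sequences of a family.

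Per1 was lower in the hippocampus, but only against some of the neocortex arrays. Over 17 arrays each, its signal had a median of 1934 (1176 to 2668) in the neocortex and 1363 (1131 to 1757) in the hippocampus. The single-treatment log2 differences were -0.37 ± 0.17 with saline, -0.47 with kainate and -0.48 with nicotine (adjusted p = 0.2, 0.107 and 0.0837 by limma), none of them called. The averaged difference was -0.44 ± 0.10 (adjusted p = 0.00132 by limma). Against neocortex cluster 1 it was -0.78 ± 0.07 (adjusted p = 9.89e-10 by limma), and against neocortex clusters 2 and 3 it was -0.05 ± 0.08 (0.763). Per1 was thus called against one set of neocortex arrays and not against the other, and the difference between the sets was not itself tested.

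Of the output genes, Dbp was lower in the hippocampus and Tef was not called. Dbp, a classic rhythmic output of the loop, had a median of 1006 (757.2 to 1265) in the neocortex and 758.4 (552.1 to 1149) in the hippocampus. Its averaged log2 difference was -0.37 ± 0.09 (adjusted p = 0.000976 by limma), and no single treatment was called (-0.33, -0.43 and -0.36). Against neocortex clusters 2 and 3 it fell to -0.30 ± 0.12 and was not called (adjusted p = 0.089 by limma). In the hippocampus the mean of Dbp was 725.4, 973.4 and 715.4 in clusters 1, 2 and 3. In the neocortex it was 1077, 946.9 and 979.4, so hippocampus cluster 2 lay within the neocortex means. The region difference against single hippocampus clusters was not tested. Tef had a median of 8275 (5107 to 10428) in the neocortex and 8769 (7203 to 11160) in the hippocampus, with an averaged log2 difference of 0.15 and a 95% interval from -0.00 to 0.30. Against neocortex cluster 1 the Tef difference was 0.35 ± 0.06 and called (adjusted p = 4.81e-05 by limma), and against clusters 2 and 3 it was -0.09 ± 0.07 (0.431). The averaged differences of Per2, Cry1 and Npas2 were called against either set of neocortex arrays, while their single-treatment calls with saline and nicotine were lost against both.

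**Figure D2:**
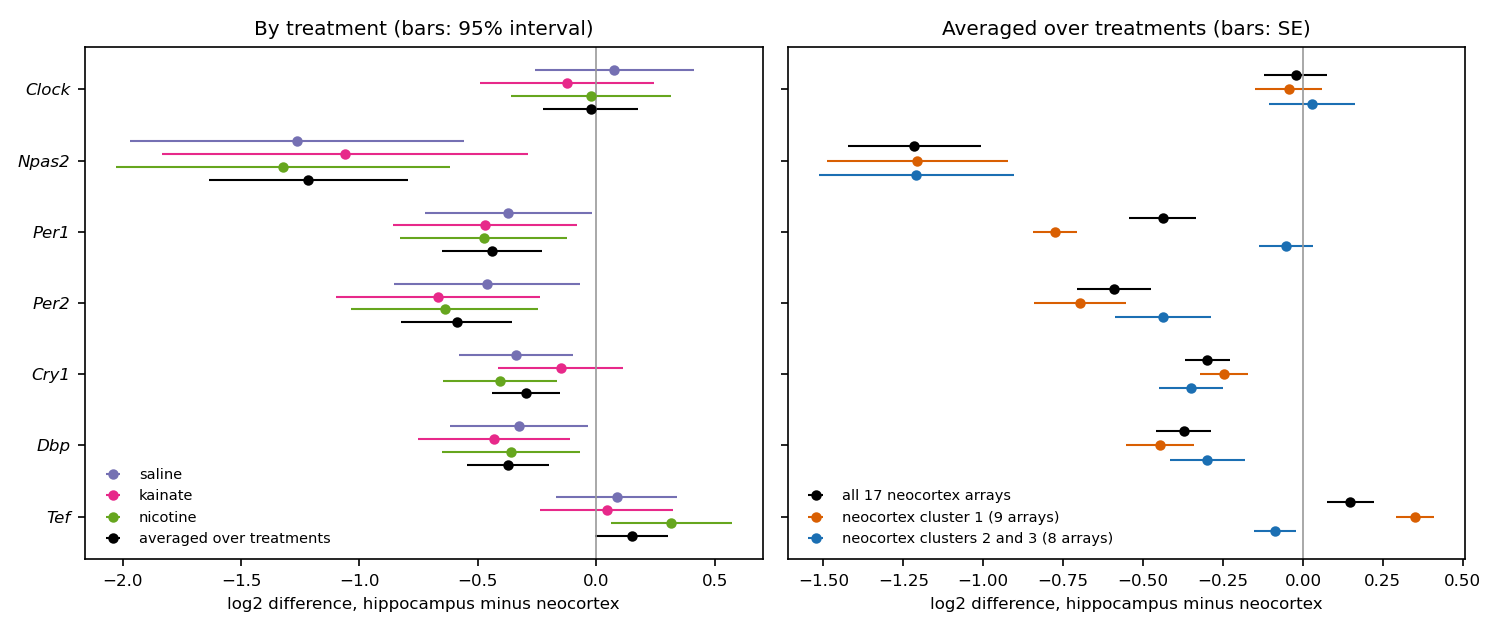
Log2 difference, hippocampus minus neocortex, for each clock gene. On the left, by treatment and averaged over treatments with 95% intervals; on the right, averaged with all neocortex arrays, with the 9 of spike-in cluster 1 or with the 8 of clusters 2 and 3, with standard errors. Npas2 is at -1.22 on average and at -1.21 against either set of neocortex arrays, while Per1 moves from -0.78 to -0.05.

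The order of the 6 group means was mostly within the spread of the arrays. For Per1, the nicotine hippocampus mean was above the kainate hippocampus mean by 0.19 on the log2 scale against an SD of 0.18. For Per2, the kainate neocortex was above the saline hippocampus by 0.42 against an SD of 0.38, and for Npas2 the saline neocortex was above the kainate hippocampus by 1.06 against 0.70. Between no other neighbouring group means of any of the 7 genes was the difference larger than the larger SD of the groups.

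Other genes of the loop, together with genes linked to it, were taken from a list of 25, of which 16 were measured. The list is wider than the loop described above and includes Nfil3, Csnk2a1, Usp2 and Pdxk. Its genes are called other loop genes here. Averaged over treatments, 7 of 16 were called lower in the hippocampus and 1 higher, where 24.8% of all probe sets were called. The median log2 difference of the 16 was -0.15, against 0.01 over all tested probe sets. Rora, a nuclear receptor that activates Arntl, was lower by 1.92-fold (-0.94 ± 0.09, adjusted p = 3.37e-10 by limma). Its mean signal was 834 ± 142 (SD, n = 6) in the saline neocortex and 399 ± 124 (n = 6) in the saline hippocampus, with no overlap. Bhlhe40, which encodes the E-box repressor DEC1, was lower by 1.68-fold (-0.75, adjusted p = 6.9e-07 by limma). Its saline means were 2616 ± 644 and 1636 ± 251, and the arrays did not overlap. Like Per1, Bhlhe40 was also higher in neocortex cluster 1 than on the other neocortex arrays, as given below. Nr1d1 (REV-ERBα, a repressor of Arntl) was lower by 0.52 log2, Arntl by 0.43, Nr1d2 by 0.28, Usp2 by 0.23 and Btrc by 0.19. Fbxw11, an F-box protein that acts in PER degradation, was higher by 0.32. Cry2 was called with saline only (-0.46, adjusted p = 0.0363 by limma), and averaged it was -0.23 (0.056). With saline, kainate and nicotine, 5, 3 and 4 of the 16 genes were called lower, and 0, 1 and 0 higher. Of all probe sets, 10.5%, 13% and 9.61% were called in these 3 comparisons. Whether the differences of these 16 genes hold against single sets of neocortex clusters was not tested.

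The next question was whether the drugs changed these genes. At 7 days after the injections, none of the 7 clock genes was called for kainate or nicotine in either region. By limma, kainate against saline gave 0 of 7 in the hippocampus, where 2.79% of all probe sets were called, and 0 of 7 in the neocortex, where 0.0115% were. Nicotine against saline gave 0 of 7 in the hippocampus and 0 of 7 in the neocortex, with 0% called among all probe sets in both regions, although 504 and 835 of them had an unadjusted p under 0.05. Kainate against nicotine gave 0 of 7 in both regions, against 2.42% of probe sets in the hippocampus and 0.0345% in the neocortex. The test of whether the drug effect differed between the regions gave 0 of 7 for kainate, against 0.794% of probe sets, and 0 of 7 for nicotine, against 0% (328 had an unadjusted p under 0.05). At an unadjusted p under 0.05, limma gave 2 of 7 for kainate against saline in the hippocampus (Per1 and Tef), 1 of 7 for nicotine against saline in the neocortex (Tef), and 0 in the other drug comparisons and the tests between regions. Of the 16 other loop genes, 0 were called in any of these comparisons. The comparisons with saline share the saline arrays, and those with kainate the kainate arrays.

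Per1 had the lowest p of the drug comparisons, in the kainate hippocampus. The 5 kainate arrays read 1131, 1172, 1443, 1265 and 1133, and the 6 saline arrays ran from 1229 through a median of 1588 to 1707. The groups overlapped, with 3 of 5 kainate arrays below the lowest saline array. The mean was 1229 ± 132 (SD, n = 5) with kainate and 1523 ± 200 (n = 6) with saline, a log2 difference of -0.30 ± 0.12 (SE), a 95% interval from -0.54 to -0.06 and an adjusted p of 0.209 by limma. After centring each array on its median the difference was -0.41 ± 0.11 and called (adjusted p = 0.0402 by limma). All the kainate arrays of the hippocampus had higher array medians (403.4 to 438.5) than any saline array (381.1 to 391.2). In the same arrays the summed signal of 6 microglia markers was 27957 to 45763 with kainate and 10775 to 11678 with saline. All 6 were called higher, where 160 of 8695 tested probe sets were called higher and 83 lower. The summed signal of 6 hippocampal neuron markers was 10241 to 11810 with kainate and 13716 to 14817 with saline. Among these, Crym, Wfs1, Calb1 and Dsp had lower means with kainate. Prox1 (398.1 against 273.3) and Zbtb20 (2665 against 2609) had higher ones. The part of the microglia and neuron markers in the Per1 difference was not tested. Of the immediate early genes, to which Per1 also belongs, 2 of 17 were called lower there, against 83 of 8695 tested probe sets. They were Egr1 (-0.57, adjusted p = 0.0135 by limma) and Nr4a1 (-0.77, 0.0249). Jun, Ier2, Atf3 and Btg2 had higher means with kainate, and the rest of the list lower ones.

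Tef had the lowest unadjusted p for nicotine. In the neocortex the 6 nicotine arrays ran from 5107 through a median of 7060 to 9914, and the 6 saline arrays from 8084 through 8916 to 10428. The log2 difference was -0.35 ± 0.15, with a 95% interval from -0.66 to -0.05 and an adjusted p of 0.479 by limma. Within neocortex cluster 1, the 3 nicotine arrays (5107 to 6044), the 3 kainate arrays (6476 to 7651) and the 3 saline arrays (8084 to 9325) did not overlap. There the nicotine difference was -0.60 ± 0.10 (adjusted p = 0.13 by limma), and with cluster as a block over all arrays it was -0.35 ± 0.09 (0.111), neither of them called. In the hippocampus Tef differed by -0.21 ± 0.09 between kainate and saline (adjusted p = 0.29 by limma). For Per1 the same cluster held kainate arrays at 1934 to 2185, below saline at 2455 to 2648 and nicotine at 2398 to 2668. With cluster as a block that neocortex difference was -0.28 ± 0.09 between kainate and saline (adjusted p = 0.404 by limma).

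The other members gave wide or small intervals for the drugs. Clock was higher by 0.32 ± 0.17 log2 with nicotine in the neocortex (535 ± 96.1 against 430 ± 107, SD, n = 6 each), with an adjusted p of 0.55 by limma. For Npas2 in the hippocampus, where its spread was large, the 95% interval for kainate against saline ran from -0.79 to 1.21, so that changes of that size cannot be seen with these arrays. In the neocortex the same interval ran from -0.22 to 0.23. For Dbp, Cry1 and Per2 the lowest adjusted p by limma in the comparisons with saline was 0.7 (Per2, kainate, hippocampus).

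The last question was how the 7 genes varied from array to array. Among neocortex arrays, Per1 and Tef varied mainly with the spike-in clusters, in opposite directions. Per1 was 1934 to 2668 on the 9 arrays of cluster 1 and 1176 to 1910 on the other 8, with no overlap, a difference of 0.72 on the log2 scale. The clusters held 90.03% of its spread after treatment means were removed, more than for 99.9% of tested probe sets (median 24.4%). Tef was 5107 to 9325 in cluster 1 and 8076 to 10428 in the others, lower by 0.44 on the log2 scale, with 73.2% of its spread between clusters. The share was 51.3% for Clock, 42.1% for Cry1, 26.5% for Per2, 24.8% for Dbp and 1.70% for Npas2. Cluster membership follows the replicate numbers of the labels, with cluster 1 made of numbers 1 to 3 of each treatment.

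Many immediate early genes split the same way. Of 17 measured, 14 were higher in neocortex cluster 1, where 52.4% of all tested probe sets were higher. Their median log2 difference was 0.18, against 0.01 over all tested probe sets, and their median cluster share was 57.2%, against 24.4%. The members with the largest shares are named next. Nr4a1, a nuclear receptor induced by neuronal activity, was 0.61 log2 higher with a share of 89.0%, Fos 0.75 higher with 84.9%, and Dusp1, a phosphatase that turns off MAP kinases, 0.64 higher with 81.6%. Bhlhe40 was 0.52 higher and Csnk1d, a kinase that phosphorylates PER proteins, 0.27 lower, while of the 16 other loop genes 6 were higher in cluster 1. Of 14 glucocorticoid-responsive genes 10 were higher, with a median of 0.14 and a median cluster share of 35.6%, and Ddit4 (0.57) and Sgk1 (0.51) were among the highest. The 5′ probe set of the β-actin control was 22278 to 32985 in cluster 1 and 33776 to 44085 and 34733 to 42168 in clusters 2 and 3. Its 3′ probe set separated too, at 30636 to 43407 against 45248 to 54767 and 53521 to 61548. The median ratio of 3′ to 5′ β-actin was 1.45, 1.24 and 1.51 in clusters 1, 2 and 3. The 5′ Gapdh control overlapped, at 45766 to 64126, 51710 to 56614 and 63527 to 67776. The part of the control signals in the split was not tested.

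The hippocampus clusters did not carry Per1 or Tef in the same way. There the share was 25.4% for Per1 and 4.29% for Tef, and the largest was 51.4% for Dbp (median over all tested probe sets 19.1%). Dbp was 797.9 to 1149 in hippocampus cluster 2, 552.1 to 979.9 in cluster 1 and 672.1 to 758.4 in cluster 3. The shares of Cry1, Clock, Npas2 and Per2 were 18.1%, 14.9%, 8.29% and 3.59%.

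**Figure D3:**
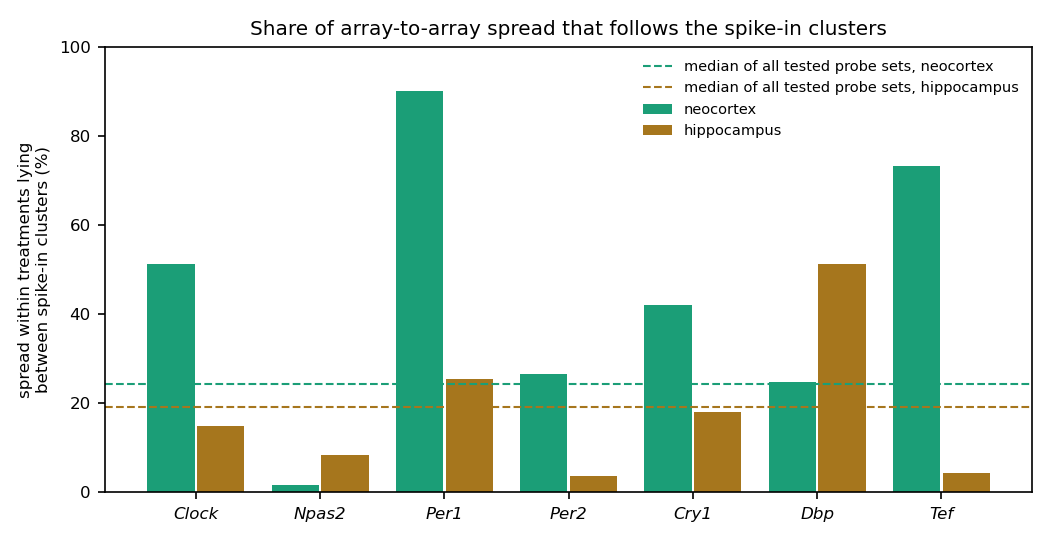
Share (percent) of each clock gene's spread, after treatment means were removed, that lies between the 3 spike-in clusters of its region, with a dashed line at the median of all tested probe sets. Per1 (90.03%) and Tef (73.2%) stand far above the neocortex median of 24.4%, and Dbp (51.4%) is highest in the hippocampus.

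The 21 pairs of the 7 genes were correlated over the 17 arrays of each region after treatment means were removed. With Benjamini-Hochberg adjustment over the 42 pairs, no pair was called in either region by the permutation test, and 2 neocortex pairs and 0 hippocampus pairs had an unadjusted p under 0.05. In the neocortex r ran from -0.76 to 0.52, with 10 of 21 positive, and in the hippocampus from -0.50 to 0.44, with 11 of 21 positive. Positive and negative relations were thus about equally many in both regions.

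The strongest pair was Per1 with Tef in the neocortex. Pearson's r was -0.76 (permutation p = 0.00199, adjusted 0.0836) and Spearman's rho -0.69 (permutation p = 0.00253, adjusted 0.106) over 17 arrays. Without the 2 arrays farthest from the median of Per1, r was -0.87. The arrays fall into the spike-in clusters, and within the 9 arrays of cluster 1 r was -0.16 (exact permutation p = 0.741, adjusted 0.943). With cluster means removed over all 17 arrays it was 0.17. The relation was therefore not found within clusters. Leaving out saline neocortex replicate 4 gave r = -0.90 (permutation test, adjusted p = 0.0042). The other neocortex pair with an unadjusted p under 0.05, Per2 with Tef, had r = -0.53 (permutation p = 0.0429, adjusted 0.588), rho = -0.54 (permutation p = 0.05, adjusted 0.834), r = -0.58 without the 2 farthest arrays, 0.04 within cluster 1 and -0.21 with cluster means removed.

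Per1 and Cry1, which are activated through the same E-box, had negative r in both regions. In the neocortex r was -0.41 (permutation p = 0.139, adjusted 0.588), rho -0.25 (permutation p = 0.37), and r without the 2 farthest arrays 0.07. In the hippocampus r was -0.50 (permutation p = 0.0743, adjusted 0.588), rho -0.24 (permutation p = 0.418), and r without the 2 farthest arrays -0.23. With cluster means removed r was -0.54 and -0.47, and within the largest cluster 0.13 and -0.45. Neither relation passed the test, and in the neocortex it rests on 2 arrays.

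**Figure D4:**
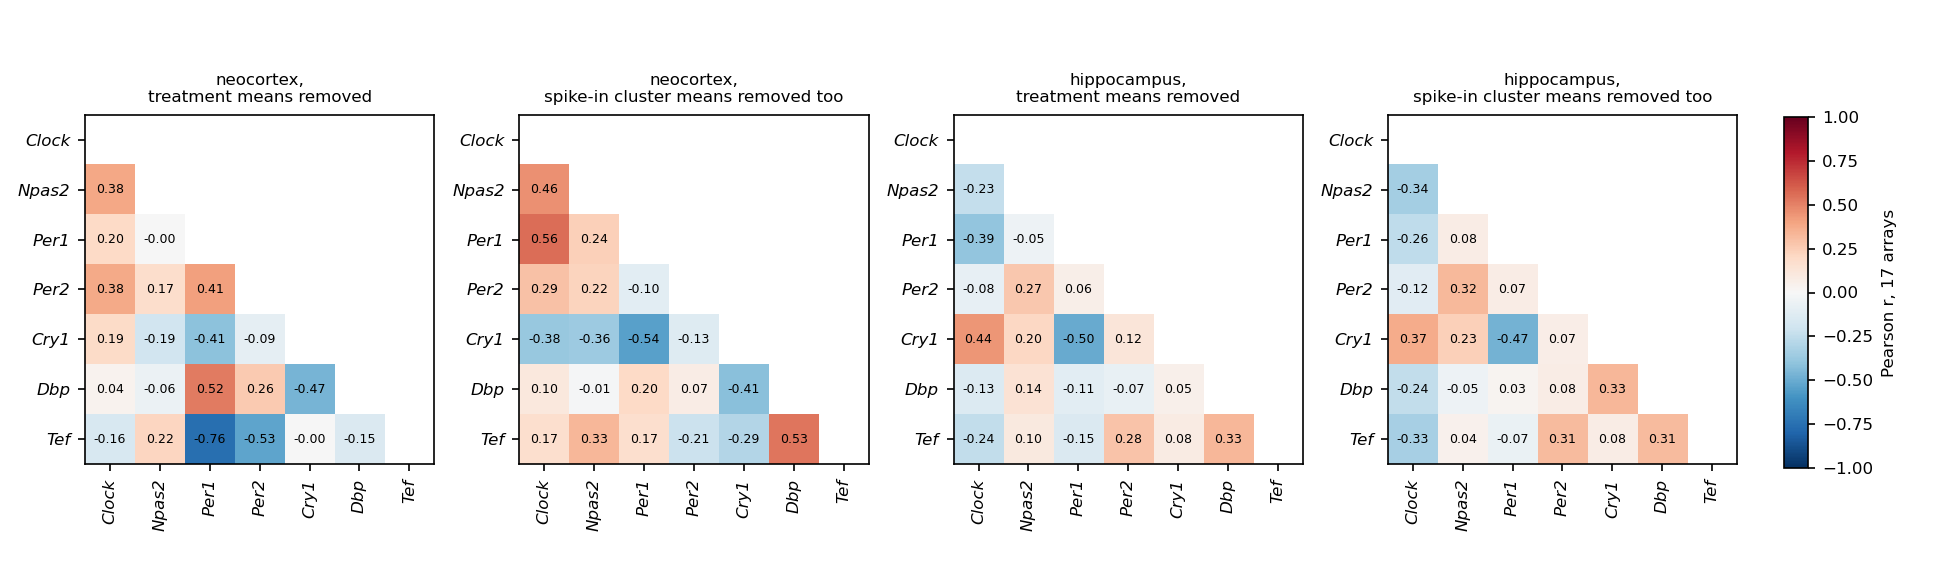
Pearson r between the clock genes over the 17 arrays of each region, with treatment means removed and with spike-in cluster means removed too. Per1 with Tef in the neocortex goes from -0.76 to 0.17 when cluster means are removed, and no pair passes the adjusted test.

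Outside the clock, the genes most like Per1 over the neocortex arrays were Klf10 (r = 0.89), Sparc (0.87) and Samd4b (0.87), and these values fell to 0.27, 0.11 and 0.42 when cluster means were removed. In the hippocampus they were Guca1a (0.84), Dlat (0.81) and Gadd45b (0.77), where the value with cluster means removed stayed at 0.79 for Guca1a and 0.77 for Gadd45b. Over all 34 arrays they were Klf10 (0.73), Ddit4 (0.72) and Gadd45b (0.68). For Tef in the neocortex they were Usp19 (0.93, or 0.75 with cluster means removed), Atp5l (0.89) and Trim28 (0.89). For Per2 the highest were Plpp3 in the neocortex (0.85) and Dnajb1 in the hippocampus (0.76). For Clock they were Pepd (0.89) and Dpp4 (0.79), for Dbp Ubxn1 (0.90) and Mpdu1 (0.87), and for Cry1 Cbfb (0.87) and Gmfb (0.75). No gene was among the 3 most like any of these members in both regions.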

How the data were processed

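Each array is an Affymetrix mouse array hybridised with biotin-labelled cRNA from 12 µg of total RNA, as the labels' protocols state. Each deposited value is an intensity, not logged, that the authors obtained with MAS5. The submitters' processing notes name that tool, and its version is not given in the sources used here. The mean of each array, after trimming 2% at each end, was 1000.53 to 1000.62, so all arrays had been scaled to one level.

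Of 12488 probe sets, 66 controls were left out. Of the other 12422, 10833 had 1 gene symbol, 396 several and 1193 none, and 10817 were matched by Entrez identifier. Values were tested as log2(signal + 16). Probe sets below the 30th percentile of mean log2 signal were left out, which left 8695, all 7 clock genes among them. limma 3.58.1 (R 4.3.3) was fitted on the 34 arrays for region comparisons and tests of the drug effect between regions, and on the 17 arrays of 1 region for drug comparisons. The fits took arrays as independent, although spike-in clusters follow the replicate numbers. Neocortex and hippocampus arrays can also share a mouse. The labels do not say which do, so the main region tests were not paired by mouse. Called means a Benjamini-Hochberg adjusted p under 0.05 over all 8695. Permutation tests of correlations used 100000 permutations, or 216 exact ones within a cluster (Python 3.11.15, scipy 1.17.1, matplotlib 3.10.9). All tests were two-sided, and the scripts were tested on simulated data.

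The named genes are the 7 clock genes, other loop genes where called, and the 3 probe sets with the highest r to each clock gene in each region and over all arrays. Immediate early, glucocorticoid-responsive and cell-type lists are given by counts, with examples chosen after their values were seen. The members and lists were chosen with earlier results of these data known. The averaged region comparison and all settings with spike-in clusters (Ward clustering of the 9 control probe sets within a region) were added after seeing the data. Whether replicate numbers pair arrays was checked by correlating the deviations of same-numbered arrays from their group means, with every pair over 0.1 as the criterion. Between regions 2 of 17 pairs passed 0.1 (-0.14 to 0.15). Between treatments 6 of 16 pairs passed in the neocortex and 9 of 16 in the hippocampus. Of the separate comparisons, kainate against nicotine in the hippocampus met the criterion (5 of 5 pairs, 0.12 to 0.28), and no other comparison did. The labels do not say what the numbers share. Correlations between arrays were 0.917 to 0.969, and 0 pairs were identical. Precision is limited by how many arrays there are. The labels call the samples biological replicates.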

Additional observations from a re-analysis of the deposited data

Results flagged for a closer look

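In 3 of 42 sets of arrays (7 genes in 6 groups), 1 array stood apart from the rest of its group. Chance gives about 1 in 20 such sets. Cry1 read 1853 (1852.6) on saline neocortex replicate 4, and the other 5 arrays of that group lay between 1160 and 1340. Dbp read 757.2 on nicotine neocortex replicate 5, and the others lay between 965 and 1050. Npas2 read 127.9 on kainate hippocampus replicate 3, and the others lay between 341.8 and 480. No explanation for these arrays was tested.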

How the results depend on the processing

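Of 14 counts of called genes or pairs, 10 were 0, and these stayed 0 in 302 of 304 alternatives. Several of these come from comparisons that called almost none of 8695 probe sets, such as 0 for nicotine against saline in both regions. A count that stays 0 there does not show that the result is stable. The 4 region counts over 0 stayed within 1.5 times in 145 of 180 alternatives. With saline, the region count of 1 became 2 with the filter at the 50th percentile and 0 with spike-in cluster as a random block or neocortex clusters 2 and 3, and ran from 0 to 2 with 1 array left out. With kainate, 1 became 2 with a pseudocount of 64, median centring, quantile normalization or neocortex cluster 1, 3 with array weights, and 0 with the 50th percentile filter (which leaves out Per2), the replicate block, the random block or neocortex clusters 2 and 3, and ran from 0 to 2 with 1 array left out. With nicotine, 3 became 5 with array weights, 1 with the random block and 0 with neocortex clusters 2 and 3, and ran from 2 to 5 with 1 array left out. Counts hide a change of genes with neocortex cluster 1: there Per1 was called in place of Npas2 with saline, Per1 beside Per2 with kainate, and Per1 and Tef in place of Per2, Cry1 and Npas2 with nicotine. The averaged count of 5 became 3 with neocortex clusters 2 and 3 and stayed 5 with any 1 array left out. Kainate against saline in the hippocampus went from 0 to 1 (Per1) with median centring. Pairs called in the neocortex ran from 0 to 1 with 1 array left out. Neocortex subsets hold fewer arrays, and other causes were not tested.

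The criterion for paired replicate numbers was met for kainate against nicotine in the hippocampus, where the replicate block left the count at 0, and not for the region comparisons. Cluster membership nevertheless follows the numbers within each region. For region comparisons the block joined the neocortex and hippocampus arrays of the same treatment and number. With it, Per2 lost its calls with kainate (adjusted p = 0.0706 by limma) and nicotine (0.0702), and Per1 gained one with nicotine (0.0435). That block does not account for the clusters, which hold different numbers in the neocortex and hippocampus. For Per1 and Tef, with the replicate number as a block within the neocortex, r was 0.31. Cry1 had other probe sets, but these lay below the filter, so they gave no test.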
